A study of Mus musculus with 14 samples.

Results

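Kel, Ermap, Rhag, Rhd, Icam4 and Cd24a encode proteins of the red cell surface, and most of them carry blood group antigens in humans. These 6 genes, of 21887 protein-coding genes in the RefSeq annotation of the mouse build GRCm38, were taken by name, each with 5 kb on either side. For each gene the data give the ChIP-seq peaks of the transcription factors GATA2 and RUNX1. They also give the share of the gene lying under peaks of RNA polymerase II phosphorylated at serine 2 of its tail (S2P), the form found on elongating polymerase. In that build the genes span chr17:40811099-40844094 (Rhag), chr4:134864536-134896172 (Rhd), chr9:21029432-21030596 (Icam4), chr6:41686329-41704334 (Kel), chr4:119175457-119190013 (Ermap) and chr10:43579169-43584265 (Cd24a). The lists compare G1ER cells labelled Chd7-/- (KO) with wild-type G1ER cells (WT).

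The Rh proteins sit in the red cell membrane as a complex around Rhag, an ammonia channel family member that Rhd needs to reach the surface in mice. Icam4 is the Landsteiner-Wiener adhesion molecule, which is found with the Rh complex and binds integrins. Kel is a zinc endopeptidase linked to the Xk protein, Ermap is a butyrophilin-like protein that carries the Scianna antigens in humans, and Cd24a is a small glycoprotein anchored by lipid and used to follow erythroid maturation by flow cytometry. GATA factors bind the letters GATA at erythroid genes, GATA2 in progenitors and GATA1 later, and RUNX1 binds DNA with its partner CBFB in blood progenitors.

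G1ER is a mouse erythroblast line without endogenous GATA1 that carries a GATA1 fusion switched on by estradiol. Both genotypes were grown with erythropoietin and stem cell factor, and the labels name estradiol for a differentiation assay without saying whether the cells used for ChIP had received it. They do not say how many KO clones were used. CHD7 is a chromatin remodelling ATPase, and the comparison of genotypes addresses the factor occupancy and elongating polymerase that go with its loss. The 14 samples comprised 8 ChIP libraries and 6 inputs, and 6 peak lists were used, 1 per target and genotype. GATA2 and RUNX1 had 1 library per genotype, and each S2P list was labelled for 2 replicates.

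The lists held 80611 KO and 68199 WT peaks for GATA2, 35281 KO and 28952 WT peaks for RUNX1, and 165206 KO and 163620 WT peaks for S2P. Median summits rested on 24 KO and 23 WT fragments for GATA2 and on 37 KO and 38 WT fragments for RUNX1, a fragment being 1 read extended to fragment length. Each target had 1 list per genotype and so no spread between replicates: no difference between genotypes was tested, and the 95% intervals below cover counting error only. In bulk chromatin, more cells with a bound site and stronger binding per cell cannot be told apart. Chd7 itself held 1 KO GATA2 peak and no WT GATA2 peak, no RUNX1 peak and no S2P in either genotype, so it gave no check of the labels. Of the erythroid marker genes, 8 of 8 held GATA2 and RUNX1 peaks in both genotypes, and S2P covered Klf1 for 83.3% in KO and 75.2% in WT, but it covered none of Slc4a1 in either. Megakaryocyte (3 of 3) and mast cell (2 of 2) markers also held peaks of both factors in both genotypes. Of 4 myeloid markers, 0 held a factor peak in any list, and S2P covered 10.9% of Csf1r in KO and 11.6% in WT. Of 4 lymphoid markers, 3 in KO and 2 in WT held a GATA2 peak, Cd79a held RUNX1 peaks in both genotypes, and S2P covered none in either.

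The promoters are shown first, because GATA2 summits of both genotypes lay inside all 5 that were in the RefSeq promoter table, next to the letters a GATA factor reads. Each window holds 250 bases before the annotated transcription start and 50 bases after it, on the strand of the gene in GRCm38.p6. Capitals mark a GATA motif, the letters GATA preceded by A or T and followed by A or G, searched on both strands, so that TTATCA and TTATCT are motifs read from the opposite strand. The windows are chr17:40810899-40811198 (plus strand) for Rhag, chr4:134864286-134864585 (plus) for Rhd, chr9:21029182-21029481 (plus) for Icam4, chr6:41704276-41704575 (minus) for Kel and chr4:119189946-119190245 (minus) for Ermap.
Rhag: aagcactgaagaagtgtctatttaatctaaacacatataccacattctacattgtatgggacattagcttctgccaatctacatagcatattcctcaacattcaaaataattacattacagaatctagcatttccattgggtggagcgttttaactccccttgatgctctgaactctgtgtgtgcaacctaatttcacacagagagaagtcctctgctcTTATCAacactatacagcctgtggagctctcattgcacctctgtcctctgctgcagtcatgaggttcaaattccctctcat
Rhd: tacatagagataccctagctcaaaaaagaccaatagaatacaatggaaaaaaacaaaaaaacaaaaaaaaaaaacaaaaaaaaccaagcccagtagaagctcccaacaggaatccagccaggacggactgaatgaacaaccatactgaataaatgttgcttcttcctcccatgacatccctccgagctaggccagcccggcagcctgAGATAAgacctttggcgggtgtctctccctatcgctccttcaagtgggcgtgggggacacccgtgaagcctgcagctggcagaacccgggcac
Icam4: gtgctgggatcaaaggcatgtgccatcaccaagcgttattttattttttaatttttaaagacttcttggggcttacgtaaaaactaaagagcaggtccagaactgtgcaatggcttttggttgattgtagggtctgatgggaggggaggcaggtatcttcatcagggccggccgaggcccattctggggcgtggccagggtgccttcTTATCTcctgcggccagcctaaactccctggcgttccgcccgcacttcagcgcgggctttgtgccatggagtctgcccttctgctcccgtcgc
Kel: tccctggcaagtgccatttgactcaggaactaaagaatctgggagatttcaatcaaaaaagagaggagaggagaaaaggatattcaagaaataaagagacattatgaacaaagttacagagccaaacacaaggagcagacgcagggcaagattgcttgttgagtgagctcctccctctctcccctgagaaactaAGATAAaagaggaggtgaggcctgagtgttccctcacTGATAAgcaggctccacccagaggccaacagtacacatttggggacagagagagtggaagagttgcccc
Ermap: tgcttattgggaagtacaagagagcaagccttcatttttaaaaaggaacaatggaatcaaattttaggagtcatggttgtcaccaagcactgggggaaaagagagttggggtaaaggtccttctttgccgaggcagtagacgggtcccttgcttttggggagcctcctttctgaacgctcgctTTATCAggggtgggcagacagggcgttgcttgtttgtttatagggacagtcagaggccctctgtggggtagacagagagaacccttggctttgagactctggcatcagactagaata

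A GATA motif stood in 5 of these 5 windows, against 26.0% of 21263 promoter windows and 67.4% of the 506 windows with a GATA2 summit in both genotypes. The nearest motif lay 3 bp in KO and 5 bp in WT from the GATA2 summit at Rhag, 4 bp in KO and 18 bp in WT at Rhd, and 6 bp in KO and 11 bp in WT at Icam4. The corresponding gaps were 14 bp in KO and 11 bp in WT at Kel, which has a pair of motifs, and 7 bp in KO and 9 bp in WT at Ermap. All 5 promoters thus had a motif within 20 bp of the summit in both genotypes, as did 155 of the 506 windows (30.6%). The share of all windows that hold a GATA2 summit was 3.33% in KO and 2.83% in WT, so a summit this close to a start site was rare for GATA2. RUNX1 summits lay in 5 of the 5 windows in KO and 4 in WT, all but Ermap, against 30.2% in KO and 27.9% in WT of all windows. A RUNX motif, searched as TGTGGT or TGCGGT on both strands, was found only at Rhag (21.6% of all windows hold one), 163 bp from the KO and 127 bp from the WT RUNX1 summit. An E-box, searched as CANNTG, stood in the Kel, Rhd and Icam4 windows and in 69.0% of all windows. A KLF motif, searched as CCNCNCCC on both strands, stood in the Rhd and Icam4 windows and in 56.6% of all. At Rhd the last base of an E-box was also the first base of the KLF match. A match describes the letters alone.

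All 6 genes held at least 1 peak of both factors in both genotypes. A GATA2 peak lay at 61.0% of all protein-coding genes in KO and 56.6% in WT, a RUNX1 peak at 52.7% in KO and 50.1% in WT, and peaks of all 4 lists at 40.8%. The 6 genes together held 49 KO and 43 WT GATA2 peaks and 30 KO and 21 WT RUNX1 peaks. Their median was 8 KO and 7 WT GATA2 peaks per gene and 5.5 KO and 3.5 WT RUNX1 peaks, where the median of all genes was 1 in each list. Over genes with at least 1 peak in the list, the median was 3 KO and 2 WT for GATA2 and 2 in each genotype for RUNX1. Gene length was not taken into account. KO had more GATA2 peaks than WT at 4 of the 6 genes, as at 48.3% of all genes bound in either genotype, and fewer at Icam4 (17.0% of all genes). KO had more RUNX1 peaks at 4 of the 6 (44.0%) and fewer at none (12.7%).

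**Figure D1:**
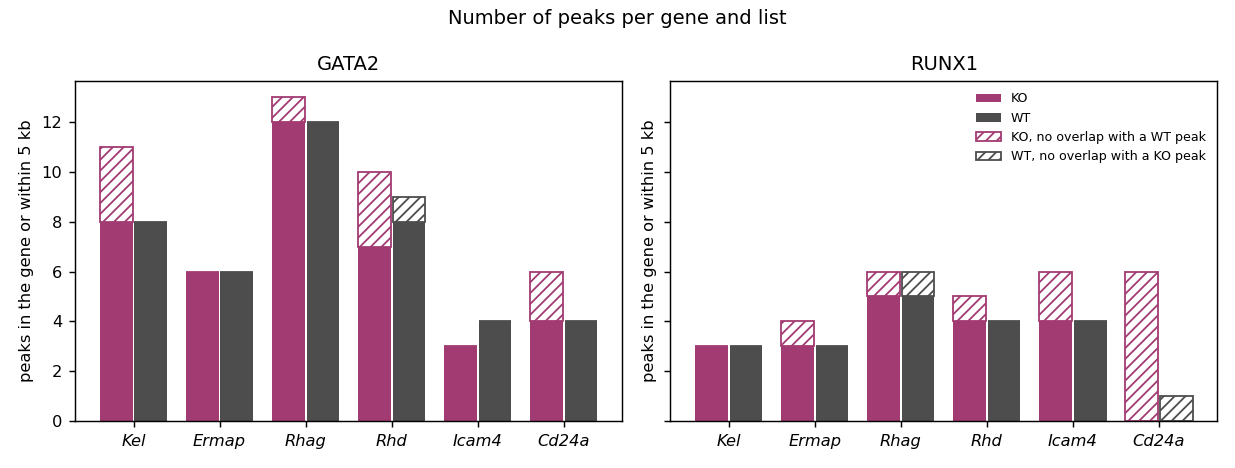
Number of GATA2 peaks (left) and RUNX1 peaks (right) with a summit in each gene or within 5 kb of it, KO bars beside WT bars, 1 library each and no error bars. The widest gap is at Cd24a for RUNX1, with 6 KO peaks and 1 WT peak.

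**Figure D2:**
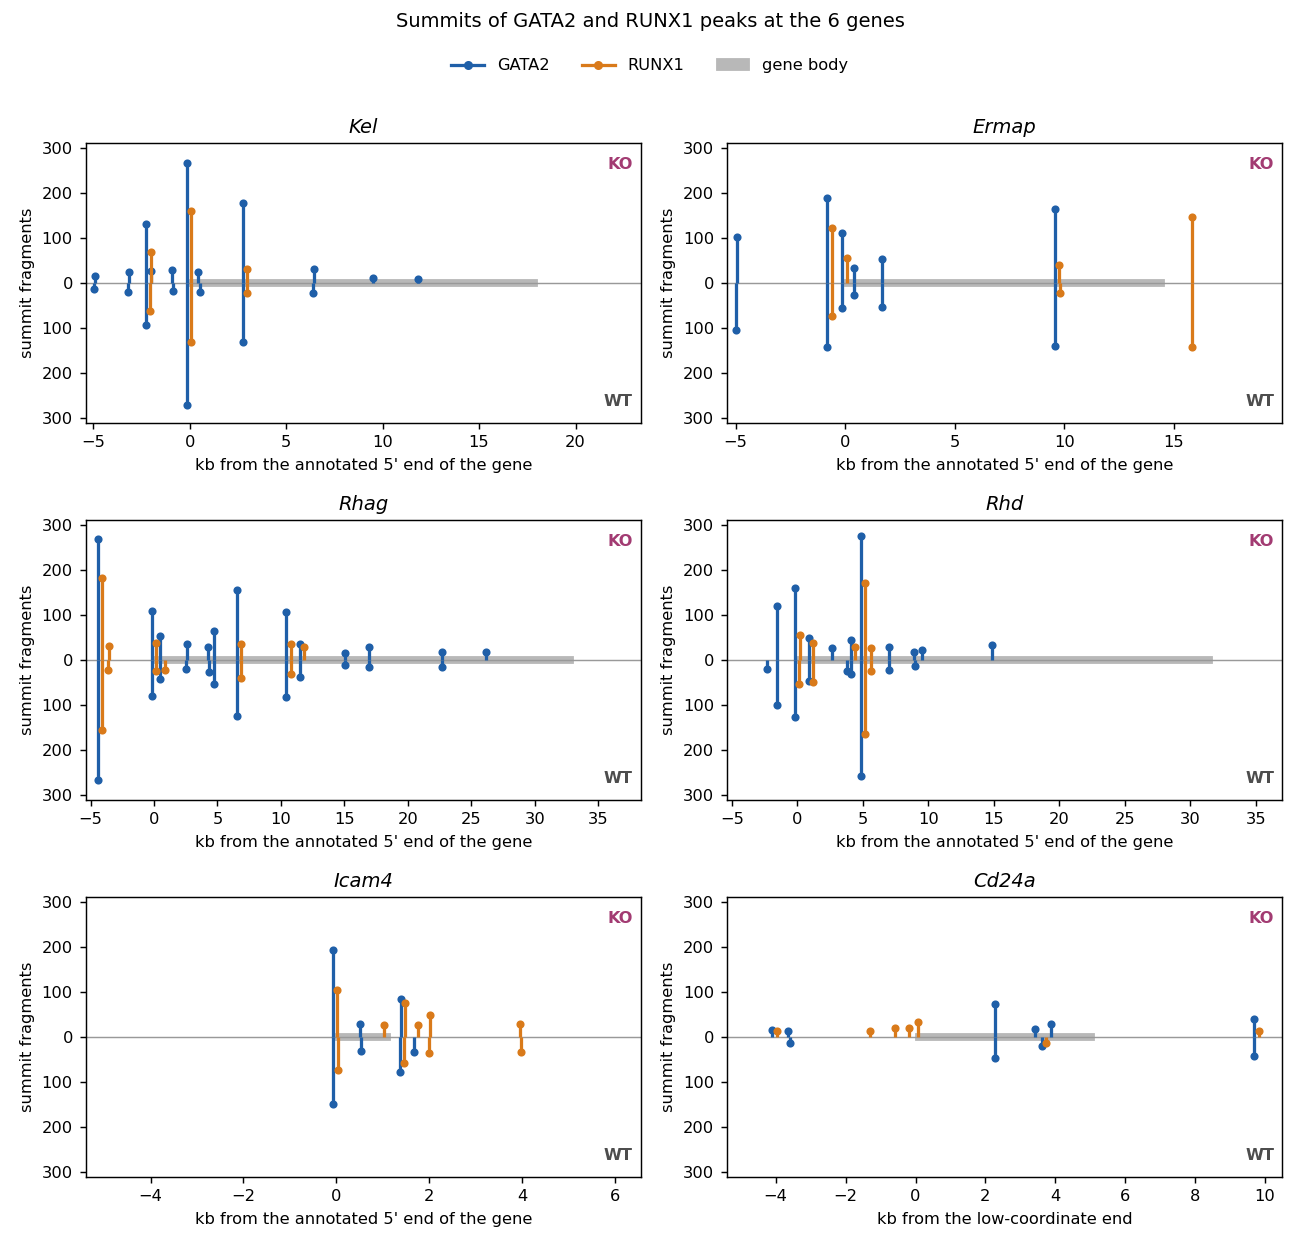
Summits of GATA2 (blue) and RUNX1 (orange) peaks along each gene in kb from its annotated 5′ end (for Cd24a, from its low-coordinate end), with summit fragments drawn upward for KO and downward for WT, the colours shifted slightly sideways, and the gene body in grey. At Rhd the sites with over 100 fragments lie between 2 kb before the 5′ end and 6 kb past it, and at Cd24a no site exceeds 73 fragments.

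Rhag carried its strongest sites before the gene rather than at its start. The highest summit, about 4.2 kb upstream of the 5′ end (KO peak chr17:40806602-40807549), had 269 GATA2 fragments in KO and 266 in WT, and 182 RUNX1 fragments in KO and 155 in WT. The promoter site had 108 GATA2 fragments in KO (89 to 130, exact Poisson interval) and 79 in WT (63 to 99), with 39 RUNX1 fragments in KO and 24 in WT. At this promoter the local background taken from the control reads was also higher in KO, with 10.4 KO and 4.64 WT fragments under GATA2 and 10.7 KO and 3.55 WT under RUNX1, and its part in the difference was not tested. The authors' deposited fold at the promoter turned the other way, at 9.52 in KO and 14.2 in WT for GATA2 and 3.41 in KO and 5.49 in WT for RUNX1. Inside the gene, sites at 6.7 and 10.6 kb had 155 and 106 GATA2 fragments in KO, against 123 and 82 in WT, and the background at 10.6 kb was 11.3 KO and 3.86 WT fragments. The deposited GATA2 fold at 10.6 kb was lower in KO, at 8.69 against 17.1 in WT. In all, Rhag held 13 KO and 12 WT GATA2 peaks and 6 RUNX1 peaks in each genotype, the most GATA2 peaks of the 6 genes. For GATA2, the KO peak without a WT partner was the weak one at 26.3 kb, with 17 fragments. For RUNX1, each genotype had 1 peak without a partner, with 28 fragments in KO and 21 in WT.

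Rhd, the Rh antigen gene itself, had its strongest site inside the gene, 5.0 kb past the 5′ end (KO peak chr4:134869079-134870246). It held 276 GATA2 fragments in KO and 257 in WT, and 172 RUNX1 fragments in KO and 164 in WT. Fragment numbers cannot exceed 282 in the KO and 286 in the WT lists, so this GATA2 site, like the strongest at Rhag and Kel, was near the ceiling. The promoter site had 160 GATA2 fragments in KO (136 to 187) and 126 in WT (105 to 150.0), and 56 RUNX1 fragments in KO and 54 in WT. Both factors thus met at the promoter and at the internal site in both genotypes. A further site 1.4 kb upstream had GATA2 alone, with 121 fragments in KO and 99 in WT. KO had 3 GATA2 peaks that overlapped no WT peak, with 23 to 33 fragments, and WT had 1 without a KO partner, with 19.

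Icam4 is a gene of 1165 bp, and its main site was its promoter (KO peak chr9:21029196-21029762). GATA2 had 194 fragments there in KO (168 to 223) and 148 in WT (125 to 174), and RUNX1 had 105 in KO (86 to 127) and 74 in WT (58 to 93). The ratio of KO to WT after scaling for depth was 1.24 for GATA2 (0.99 to 1.54) and 1.40 for RUNX1 (1.03 to 1.91). Here the local background was lower in KO, at 12.2 KO and 17.0 WT fragments for GATA2 and 10.7 KO and 14.2 WT for RUNX1. A site 1.4 kb past the 5′ end, downstream of the gene, held 84 GATA2 fragments in KO and 77 in WT, and 76 RUNX1 fragments in KO and 57 in WT. Icam4 was the one gene with fewer GATA2 peaks in KO, 3 against 4 in WT, where 1 KO peak overlapped a pair of WT peaks downstream of the gene. Its neighbours Icam1 and Icam5, adhesion molecules of the same family, start or end 618 and 1442 bp away, so these peaks fall within 5 kb of all 3 genes and cannot be assigned to Icam4 alone.

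Kel had the strongest GATA2 site of the 5 promoters (KO peak chr6:41703994-41704826). GATA2 reached 266 fragments in KO (235 to 300.0) and 271 in WT (240 to 305), a scaled ratio of 0.93 (0.78 to 1.10), and RUNX1 reached 161 in KO and 131 in WT. This summit was the highest GATA2 value at Kel, above 97.3% of all protein-coding genes in KO and 98.6% in WT. It was near the ceiling of 282 KO and 286 WT fragments, where differences are understated. The intervals take no account of that ceiling, so the ratio of 0.93 does not show that the promoter was unchanged. Sites on either side of this summit, further below the ceiling, were higher in KO than in WT. The site 2.9 kb into the gene had 177 GATA2 fragments in KO and 131 in WT, a scaled ratio of 1.27 (1.01 to 1.61), and the site 2.1 kb upstream had 132 in KO and 93 in WT, a ratio of 1.34 (1.02 to 1.76). RUNX1 occupied the same 3 places, with 31 KO and 23 WT fragments inside the gene and 68 KO and 62 WT upstream. The site 2.1 kb upstream and the GATA2 peaks further upstream lie in the long noncoding RNA gene Gm38796 and cannot be assigned to Kel alone. KO had 3 further GATA2 peaks, with 10 to 27 fragments, that overlapped no WT peak.

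Ermap showed the widest gap between genotypes in GATA2 at a promoter. GATA2 had 112 fragments there in KO (92 to 135) and 55 in WT (41 to 72), a scaled ratio of 1.92 (1.38 to 2.70), at the KO peak chr4:119189902-119190175. RUNX1 had a peak of 56 fragments in KO (42 to 73) and no called peak in WT. The local background at the promoter was likewise higher in KO, at 14.8 fragments against 6.63 in WT for GATA2, so the authors' deposited fold over background was 7.15 in KO and 7.34 in WT. On that fold the log2 ratio of KO over WT was −0.04, in place of 0.94, and the part of the background in the difference was not tested. The strongest GATA2 site lay 0.7 kb upstream of the 5′ end, with 190 GATA2 fragments in KO and 142 in WT (ratio 1.26, 1.01 to 1.58) and 122 RUNX1 fragments in KO and 73 in WT (ratio 1.64, 1.22 to 2.23). At this site the background was 6.63 KO and 5.41 WT fragments for GATA2 and 5.84 KO and 4.88 WT for RUNX1, and the deposited folds of both factors were higher in KO. A site 9.7 kb into the gene had 41 RUNX1 fragments in KO and 22 in WT (ratio 1.83, 1.07 to 3.23), with 164 GATA2 fragments in KO and 140 in WT. The strongest RUNX1 peak near Ermap, with 146 fragments in KO and 142 in WT, lay past its 3′ end close to Zfp691, a zinc finger gene 1262 bp away.

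Cd24a had the weakest factor peaks of the 6 genes. Near-identical processed copies of Cd24a exist in the mouse, and how reads with several matches were handled is not given in the sources used here. Its best GATA2 site lay 2.3 kb from the low-coordinate end (KO peak chr10:43581352-43581668), with 73 fragments in KO (57 to 92) and 47 in WT (35 to 63), a scaled ratio of 1.46 (1.00 to 2.16). RUNX1 gave 6 KO peaks of 13 to 33 fragments and 1 WT peak of 12 fragments, and no KO peak overlapped the WT peak. Of the 6 KO peaks, 5 lay between 4.0 kb before the low-coordinate end and 10 bp inside it. The WT RUNX1 peak was close to the calling limit, with a −log10 q of 2.49. The KO RUNX1 peaks had a −log10 q of 4.26 to 13.1. With 1 library per genotype and called peaks alone, whether RUNX1 was absent from these places in WT was not tested.

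Most peaks were called in both genotypes. Of 49 KO GATA2 peaks 40 (81.6%) overlapped a WT peak, and of 43 WT peaks 42 (97.7%) overlapped a KO peak, against 68.8% in KO and 81.5% in WT over all GATA2 peaks. For RUNX1, 19 of 30 KO peaks (63.3%) and 19 of 21 WT peaks (90.5%) were shared, against 69.6% in KO and 86.6% in WT over all. The 9 unshared KO GATA2 peaks had 10 to 33 fragments, and the 11 unshared KO RUNX1 peaks had 13 to 56, the highest at the Ermap promoter.

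Where 1 KO peak met 1 WT peak, summit fragments were scaled for depth by the lowest local background found in the list, 1.57 KO and 1.48 WT for GATA2 and 1.39 KO and 1.37 WT for RUNX1. GATA2 was higher in KO at 29 of 38 such sites (60.8% of 53508 sites over the genome) and RUNX1 at 16 of 19 (70.8% of 23560). The median log2 ratio of KO over WT was 0.25 for GATA2, beside 0.11 over all sites, and 0.21 for RUNX1, beside 0.19. A difference above 1.5 times upward was seen at 5 GATA2 sites (13.8% of all sites) and 3 RUNX1 sites (14.8%), and downward at none (6.59% and 4.58%). These counts and the RUNX1 direction depended on the measure. On the deposited fold over background, the median was 0.14 for GATA2 and −0.05 for RUNX1, and KO was higher at 24 of 38 GATA2 sites and 9 of 19 RUNX1 sites. By that measure 6 GATA2 and 3 RUNX1 sites were over 1.5 times higher in KO, and 1 GATA2 site, in Rhag, and 4 RUNX1 sites, in Rhag, Rhd and Icam4, were over 1.5 times lower. The medians and shares over all sites by the deposited fold were not computed, so these values do not show whether the 6 genes differ from the genome. The interval of the fragment ratio lay above 1 at 5 GATA2 sites, in Kel, Ermap and Cd24a, and at 3 RUNX1 sites, in Ermap and Icam4. At Rhag and Rhd the interval of every site with 1 KO and 1 WT peak included 1. The lower bound was 1.38 at the Ermap promoter for GATA2 and 1.22 at 0.7 kb upstream of Ermap for RUNX1. At the others it was 1.00 to 1.07, and those intervals included the median ratio over all sites. The share of all sites with an interval above 1 was not computed. None of the 6 genes is on chromosome 5, where shared sites over the whole chromosome had a median of 0.46 for GATA2 and 0.56 for RUNX1. On the members' chromosomes the medians were 0.07 to 0.12 for GATA2 and 0.16 to 0.19 for RUNX1.

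**Figure D3:**
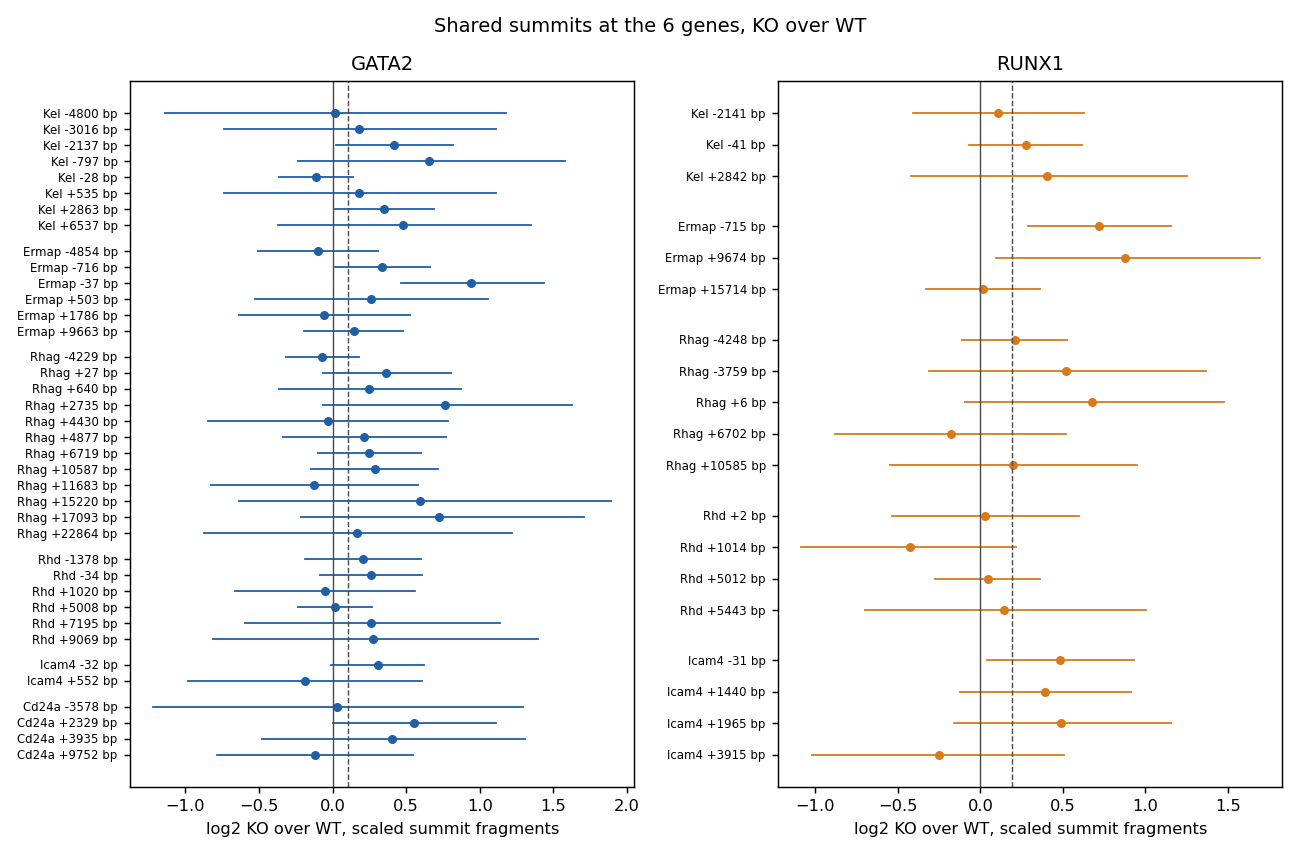
Log2 ratio of scaled summit fragments, KO over WT, at the 38 GATA2 and 19 RUNX1 sites with 1 KO and 1 WT peak, labelled by gene and by bp from the 5′ end (Cd24a, from the low-coordinate end). Lines are exact 95% intervals of counting error, the solid line marks no difference and the dashed line the median of all shared sites, and at Ermap the promoter site for GATA2 and 2 of 3 sites for RUNX1 stand clear of the solid line.

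RUNX1 mostly lay where GATA2 lay. At the 6 genes 23 of 30 KO RUNX1 peaks (76.7%) and 18 of 21 WT RUNX1 peaks (85.7%) were overlapped by a GATA2 peak of the same genotype, against 52.4% in KO and 53.9% in WT over all RUNX1 peaks. All RUNX1 peaks at Rhag, Rhd and Kel were of this kind in both genotypes. GATA2 peaks were overlapped by RUNX1 in 20 of 49 cases in KO (40.8%) and 17 of 43 in WT (39.5%), against 22.5% in each genotype over all. The factors also favoured the front of the genes. In Rhag, Rhd, Kel and Ermap, 22 of 28 KO and 20 of 23 WT GATA2 summits inside the gene lay on the 5′ side of its midpoint, which is 78.6% in KO and 87.0% in WT, against 58.5% in KO and 58.8% in WT over 15328 genes. For RUNX1 the counts were 10 of 11 in KO and 7 of 8 in WT, against 70.6% in KO and 69.4% in WT. The exception was Ermap, whose RUNX1 summit inside the gene lay on the 3′ side in both genotypes.

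Elongating polymerase covered Cd24a, Ermap and Rhag over most of their length and Kel, Rhd and Icam4 in part. The S2P share was 95.6% in KO and 97.4% in WT at Cd24a, 90.7% in KO and 89.4% in WT at Ermap, and 85.0% in KO and 86.3% in WT at Rhag. It was 54.1% in KO and 49.0% in WT at Kel, 20.5% in KO and 19.1% in WT at Rhd, and 20.4% in KO and 30.3% in WT at Icam4. So 4 of the 6 genes were covered for 50% or more in KO and 3 in WT, the difference being Kel, which lies at that limit, against 17.1% in KO and 16.7% in WT of genes of 2 kb or longer. With only peaks of −log10 q of at least 5, Kel was covered for 49.4% in KO and 42.5% in WT, and 3 genes passed the limit in each genotype. The KO peaks covered 123 Mb of the genome and the WT peaks 115 Mb, and with the KO list cut to the WT length the Kel difference of KO minus WT was 0.34 points in place of 5.04, and 3 genes passed in each genotype. The share was higher in KO at Kel, Rhd and Ermap, 3 of the 6, as at 61.0% of all genes with S2P, and lower at the other 3 (37.2%). None of the differences reached 10 points (9.66% of genes did), the widest being the Icam4 value of −9.87 points, in a gene too short for the background of 2 kb and longer. With only peaks of −log10 q of at least 5, Cd24a differed by −17.27 points. That limit dropped a KO peak of 786 bp with a −log10 q of 4.61. In WT most of the same stretch lay in a peak of 1139 bp with a −log10 q of 20.9, which was kept. With 5 kb added on either side, the Icam4 difference was 3.98 points. The Icam4 value of −9.87 points rests on 1 peak per genotype, with a deposited fold of 2.55 in KO and 2.19 in WT. The KO peak was 1053 bp wide, with 815 bp outside Icam4, and reached into the neighbour Icam1. The WT peak was 368 bp wide, with 15 bp outside. Reads of Icam1 and Icam4 cannot be told apart in the KO peak.

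Coverage lay toward the 3′ end in Rhd and Kel. In Rhd no part of the first 20% of the gene's length was covered in either genotype, and the last 20% was covered for 65.9% in KO and 61.9% in WT. In Kel the first 20% was likewise free, and the last 20% was covered for 92.8% in KO and 90.5% in WT. Over 4537 genes with 20% or more coverage in both genotypes the mean was higher toward the 3′ end, with 37.2% in KO and 39.6% in WT in the first 20% and 81.4% in KO and 78.1% in WT in the last. Ermap and Rhag had coverage in every section, lowest near the 5′ end. The first 20% was covered for 59.4% in KO and 53.1% in WT in Ermap and for 63.1% in KO and 71.4% in WT in Rhag. Icam4 was the opposite case, with coverage near its start alone. In Rhd 0 of 8 KO and 0 of 6 WT GATA2 summits inside the gene lay under an S2P peak, whereas in Rhag 10 of 12 in KO and 10 of 11 in WT did.

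S2P peaks ran past the annotated 3′ end of Rhd, Kel, Ermap and Rhag and past the high-coordinate end of Cd24a. At Rhd a peak of 5931 bp in KO and 4937 bp in WT ran 1445 bp in KO and 430 bp in WT into the neighbour Tmem50a and had a fold of 17.4 in KO and 15.3 in WT. The next highest fold in Rhd was 4.81 in KO and 4.51 in WT. At Kel the outermost peak had a fold of 11.4 in KO and 8.29 in WT and covered all of the neighbour Llcfc1, 612 bp away. At Ermap a peak ran 2176 bp in KO and 2852 bp in WT past the gene and into the neighbour Zfp691. Reads of neighbouring genes cannot be told apart at these places. The highest deposited fold was 25.8 in KO and 26.4 in WT at Cd24a and 24.1 in KO and 19.6 in WT at Rhag. At Ermap it was 8.20 in KO and 6.53 in WT, in the peak that reached Zfp691.

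**Figure D4:**
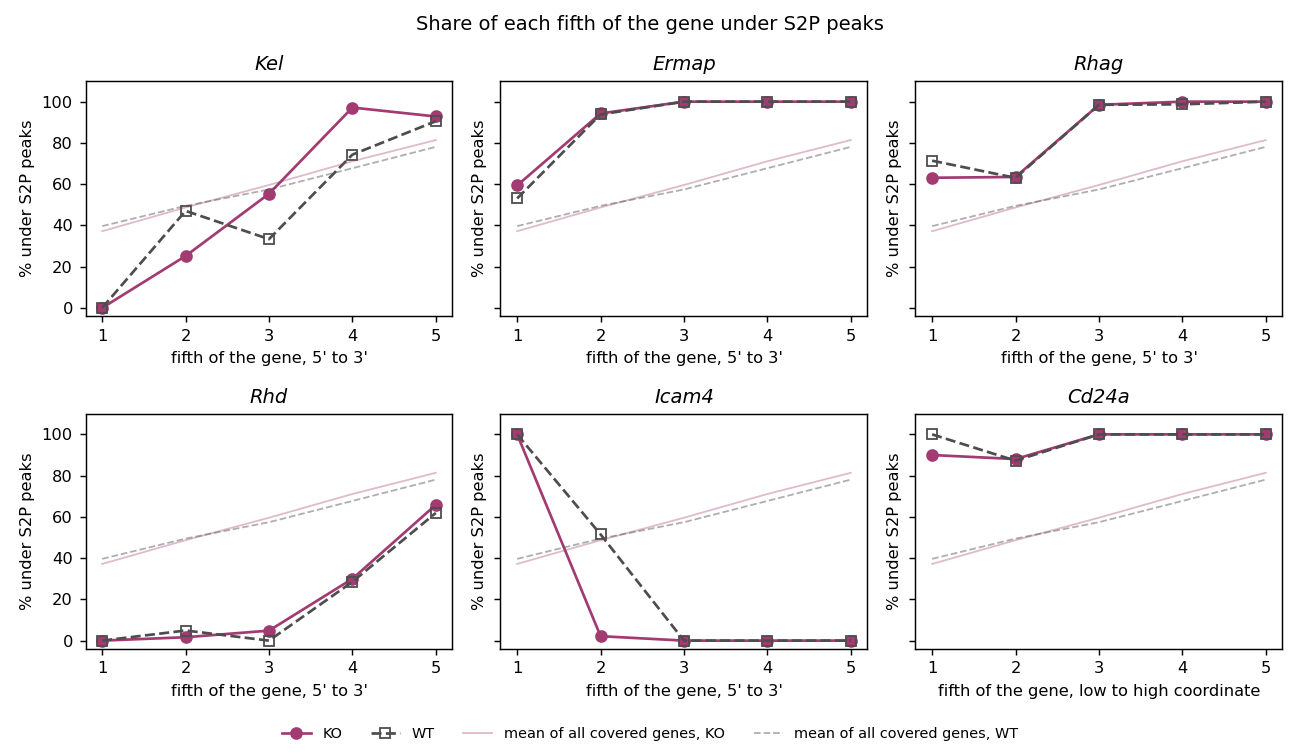
Share under S2P peaks, in percent, of 5 equal sections of each gene, from the 5′ end (Cd24a, from the low-coordinate end) to the other end, for KO and WT, with faint lines for the mean of 4537 covered genes. Kel and Rhd start at 0 and are highest toward the 3′ end in both genotypes, Ermap, Rhag and Cd24a have coverage in every section, and Icam4 is covered at its start alone.

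The other genes of red cell surface antigens were taken as a list of 28 blood group carriers and 11 family relatives of the 6 genes. GATA2 was found at 24 of the 28 carriers in both genotypes and RUNX1 at 22 in KO and 23 in WT, where the shares over all genes were 61.0% in KO and 56.6% in WT for GATA2 and 52.7% in KO and 50.1% in WT for RUNX1. Among the strongest GATA2 summits were those at the acetylcholinesterase gene Ache, with 282 fragments in KO and 285 in WT, and at the glycophorin C gene Gypc, with 282 in KO and 283 in WT. The strongest RUNX1 summits lay at the tetraspanin gene Cd151, with 232 in KO and 209 in WT, at Ache, with 251 in KO and 192 in WT, and at Gypc, with 160 in KO and 140 in WT. RUNX1 peaks in 1 genotype alone were found at the fucosyltransferase gene Fut1 in KO, with 12 fragments, and in WT at the semaphorin gene Sema7a, with 15, and at the I-branching enzyme gene Gcnt2, with 54. Of the 27 carriers of 2 kb or longer, 9 in KO and 8 in WT were covered by S2P for 50% or more (17.1% in KO and 16.7% in WT over all genes). Coverage crossed that limit upward in KO at Cd151, with 55.3% in KO and 46.2% in WT, and at Ache, with 53.3% in KO and 47.5% in WT, and downward at basigin, Bsg, with 38.4% in KO and 56.9% in WT. Of the 17 carriers with any S2P, 12 had a higher share in KO and 5 a lower one (61.0% and 37.2% over all genes with S2P). Ache is on chromosome 5.

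The family relatives had little S2P. GATA2 was found at 7 of 11 and RUNX1 at 5 of 11 in both genotypes, and S2P covered 0 of 11 for 50% or more in either. The factor counts lie near the shares over all genes given above. Rhbg and Rhcg, the Rh glycoproteins of kidney and other epithelia, had no peak of any kind, nor had the metalloproteases Mme and Ecel1, which are relatives of Kel. Icam1 and Icam5 had peaks that they share with Icam4, and S2P covered 2.73% of Icam1 in KO and 1.87% in WT and none of Icam5.

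The genes most like each of the 5 longer genes were found by the Euclidean distance over 6 percentile ranks, those of the strongest scaled summit in the 4 factor lists and of the share in the 2 S2P lists. Zc3hav1 (distance 1.70) and Mrpl15 (2.28) came nearest to Rhag, Tnk2 (2.28) and Nova1 (2.71) to Rhd, and Rhoa (2.38) and Slc25a38 (2.66) to Kel. E2f1 (2.58) and Cdca4 (3.05) came nearest to Ermap, and Slc16a4 (5.31) and Hmgb3 (5.94) to Cd24a. For Ermap the RUNX1 ranks came from the peak past its 3′ end close to Zfp691, with 146 fragments in KO and 142 in WT. Its site 0.7 kb upstream had 122 RUNX1 fragments in KO and 73 in WT, so the likeness rests partly on a peak that may not belong to Ermap. The median distance of all genes ran between 104 and 123. None of these nearest genes was another of the 6. Rhoa had 273 KO and 267 WT GATA2 fragments and 54.6% KO and 50.3% WT S2P coverage. It was chosen for closeness to Kel in these measures, so its match in them is no separate result.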

How the data were processed

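ChIP-seq peak lists for GATA2, RUNX1 and S2P in KO and WT cells were used, without read files. The tools Bowtie2 2.2.1 and MACS2 2.1.0 and the build GRCm38 (mm10) are named in the submitters' processing notes, without roles or settings. The lists carry no column names, and what each column holds was tested on its numbers. The authors deposited for each peak a score, which is 10 times the −log10 q, a fold enrichment of the summit over local background, the −log10 p and −log10 q, and the summit as an offset in bp. The lists reach to a q of about 0.05. How the 2 S2P replicates were combined, and which input served which list, is not given in the sources used here.

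For GATA2 and RUNX1, the whole number of fragments at each summit and the background around it were solved from the deposited fold and −log10 p, using the caller's Poisson model. In 100% of summits a whole number gave the deposited −log10 p to within 0.005. Intervals are exact Poisson 95% intervals for fragments and exact conditional binomial 95% intervals for ratios. They cover counting error only, since PCR reads counted without molecular identifiers need not be separate molecules. The depth of the libraries is known only through these fragments.

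A gene was given every peak with a summit inside it or up to 5 kb from either end, in the RefSeq gene table of GRCm38.p6. Peaks were shared when they overlapped by at least 1 bp. S2P coverage is the percent of gene length under deposited peaks. The table has no exons, so exons and introns were not separated. Strand and promoter sequence came from the RefSeq promoter table, which matched 5 of the 6 genes. All comparisons are descriptions beside the share over all genes or peaks.

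The 6 genes, the lists and the motifs were chosen with earlier results of these data known. Named genes are the 6, the carriers bound or covered in 1 genotype alone, the 3 carriers with the strongest WT summit per factor (1 for GATA2 is not reported here), the 2 genes nearest in pattern and the neighbours. Scripts in Python 3.11.15 with numpy 2.4.6, pandas 2.3.3, SciPy 1.17.1 and matplotlib 3.10.9 were tested on simulated data. The alternatives were a gene window of 0 or 10 kb, the nearest gene alone (chosen after seeing the data), a −log10 q of at least 5, an overlap of 50%, other scalings of summits, the deposited fold in place of fragments, and other limits of S2P coverage.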

Additional observations from a re-analysis of the deposited data

How the results depend on the processing

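Of 71 summary values under the alternatives, 61 stayed within the set range. For counts this range was 1.5 times, and for median log2 ratios it was the same sign and a change within counting error. The 71 include the number of genes with a peak in each list, which was all 6 in the main setting and had little room to change. With the gene body alone, the 6 genes held 32 KO and 26 WT GATA2 peaks and 13 KO and 9 WT RUNX1 peaks. With summits scaled by the median over shared summits outside chromosome 5, 3 GATA2 sites and 1 RUNX1 site were over 1.5 times higher in KO. The median log2 ratio under this scaling was 0.16 for GATA2 and 0.04 for RUNX1. KO was higher at 26 of 38 GATA2 sites and 11 of 19 RUNX1 sites, from 29 and 16 in the main setting. With the deposited fold enrichment, the RUNX1 median log2 ratio was −0.05 and 9 of 19 RUNX1 sites were higher in KO. The Ermap promoter GATA2 site was then −0.04 and the Rhag promoter RUNX1 site −0.69, from 0.94 and 0.68 with fragments, and this fold divides by the local background given beside those sites. With 5 kb added on either side, S2P covered 2 genes for 50% or more in KO and 2 in WT, and the difference of KO minus WT was −1.27 points at Ermap, 3.98 at Icam4 and 1.44 at Cd24a. At a limit of 25%, 4 genes were covered in KO and 5 in WT, and with the KO list cut to the WT covered length or a −log10 q of at least 5, 3 in each. So the lead of 4 in KO over 3 in WT held under none of these 4 alternatives. With the cut list, the difference was 0.34 points at Kel and −4.95 at Rhag. Of 34 values of single sites or genes, 20 stayed, 9 moved and 5 reversed. Where no other cause is given, the cause was not tested. With only peaks of −log10 q of at least 5, Cd24a was covered for 80.2% in KO and 97.4% in WT (−17.27 points) and had no WT RUNX1 peak. The KO share at Cd24a then lacked an S2P peak of 786 bp whose −log10 q of 4.61 was just below this limit. No paired analysis was possible because each target had 1 list per genotype, the S2P replicates being combined in 1 list. For the same reason no replicate could be left out. Some sites with 10 to 33 fragments are near the calling limit, such as the WT RUNX1 peak at Cd24a with a −log10 q of 2.49. Others are far above it, such as a KO GATA2 peak in Kel with 31 fragments and a −log10 q of 24.5. Summits near 282 fragments in KO and 286 in WT are near the ceiling, where differences are understated.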
